A study of Mus musculus with 16 samples.

Results

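The microRNA genes of the imprinted Dlk1-Dio3 region on mouse chromosome 12 were followed in induced hair cell-like cells and in control embryoid bodies. The list of the region held 54 microRNA gene names, and 40 of these had an array entry that carried no other gene. These 40 genes were tested among the 22180 genes of the array table. Another 11 names had an entry shared with a host or neighbour gene, 2 were older names of genes already counted, and 1 (Mir3072) was not on the table. Where a gene had several entries of its own (Mir299a, Mir376a, Mir380 and Mir409), the brightest one stood for it. The members were listed by name, and among these 4 the entry was chosen by its mean signal over all 16 arrays, the only measured value the choice used.

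Total RNA was read on 16 Affymetrix Mouse Gene 2.1 ST arrays, 1 for each sample of the mouse embryonic stem cell line iGPA-Myo7a:mVenus. In this line doxycycline (Dox) induces Gfi1, Pou4f3 and Atoh1, which are factors of hair cell development, and mVenus reports Myo7a. The 6 groups were Dox+RA day 12, Dox+RA day 8, Dox day 12 and Dox day 8, each with 3 biological replicates of sorted iMyo7a+ cells (iHCs), and untreated, unsorted embryoid bodies (EBs) at day 12 and day 8, each with 2. Dox, alone or with retinoic acid (RA), was given from day 4, so treatment lasted 8 days in the day 12 groups and 4 days in the day 8 groups. All groups carry the same inducible transgenes and reporter and come from 1 line. In any comparison of iHCs with EBs, treatment and sorting cannot be told apart.

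The Dlk1-Dio3 region is an imprinted domain. The protein-coding genes Dlk1, Rtl1 and Dio3 are read from the chromosome inherited from the father. The noncoding RNAs Meg3, Rian and Mirg, with the microRNAs and small nucleolar RNAs inside and between them, are read from the chromosome inherited from the mother, and are thought to be cut from long shared transcripts. The large cluster from miR-379 to miR-410 is best known in neurons, where several members act on dendrites and synapses and where MEF2 factors drive it. A microRNA pairs with its targets mainly through its seed, bases 2 to 8 of the mature strand. The array probes may read the host transcript as well as the hairpin, and the amount of mature microRNA was not measured.

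The mature strands below belong to the genes with the largest differences described further on. They are given 5′ to 3′ with the seed in capitals. All sequences and positions are those of RefSeq for the build GRCm38.p6, which held 52 of the 54 names and 100 mature strands with 94 distinct seeds. The hairpin of Mir300 lies at chr12:109724313-109724391, that of Mir323 at chr12:109712508-109712593, that of Mir377 at chr12:109740510-109740577, that of Mir379 at chr12:109709060-109709125 and that of Mir380 at chr12:109711803-109711863, all on the plus strand.
mmu-miR-300-5p: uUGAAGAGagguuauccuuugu
mmu-miR-300-3p: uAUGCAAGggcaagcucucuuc
mmu-miR-323-5p: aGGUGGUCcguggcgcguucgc
mmu-miR-323-3p: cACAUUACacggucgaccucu
mmu-miR-377-5p: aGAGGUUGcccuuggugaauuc
mmu-miR-377-3p: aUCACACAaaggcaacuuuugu
mmu-miR-379-5p: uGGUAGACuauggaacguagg
mmu-miR-379-3p: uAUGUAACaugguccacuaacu
mmu-miR-380-5p: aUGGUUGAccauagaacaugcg
mmu-miR-380-3p: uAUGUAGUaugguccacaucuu
mmu-miR-544-5p: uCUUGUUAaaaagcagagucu
mmu-miR-544-3p: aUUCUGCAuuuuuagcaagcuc
mmu-miR-382-5p: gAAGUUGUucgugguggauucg
mmu-miR-382-3p: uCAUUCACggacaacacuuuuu
mmu-miR-493-5p: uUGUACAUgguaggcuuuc
mmu-miR-493-3p: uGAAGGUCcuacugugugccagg

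Among these 100 mature strands, 6 seeds were each carried by 2 of the genes and none was carried by more. The second strand of Mir376c, Mir487b, Mir539 and Mir485 was not held, so its seed was not compared and further pairs may exist. The strands of the pairs found are shown because a pair with the same seed shares most of its predicted targets. The pairs were miR-379-5p with miR-1193-5p, miR-379-3p with miR-411-3p, miR-370-5p with miR-1193-3p, miR-1197-5p with miR-758-5p, miR-494-5p with miR-410-5p, and miR-376c-5p with miR-376b-5p.
mmu-miR-1193-5p: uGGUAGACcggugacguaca
mmu-miR-411-3p: uAUGUAACacgguccacuaacc
mmu-miR-370-5p: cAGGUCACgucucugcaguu
mmu-miR-1193-3p: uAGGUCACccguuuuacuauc
mmu-miR-1197-5p: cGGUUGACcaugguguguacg
mmu-miR-758-5p: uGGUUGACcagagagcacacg
mmu-miR-494-5p: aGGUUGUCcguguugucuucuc
mmu-miR-410-5p: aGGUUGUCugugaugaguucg
mmu-miR-376c-5p: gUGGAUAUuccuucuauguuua
mmu-miR-376b-5p: gUGGAUAUuccuucuaugguua

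Strands of 3 further genes are shown for contrast. Mir673 and Mir299a were called in none of these comparisons, and Mir409 was the only microRNA gene of the region called between Dox+RA iHCs and Dox iHCs.
mmu-miR-673-5p: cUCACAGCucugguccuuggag
mmu-miR-673-3p: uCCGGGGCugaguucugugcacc
mmu-miR-299a-5p: uGGUUUACcgucccacauacau
mmu-miR-299a-3p: uAUGUGGGacgguaaaccgcuu
mmu-miR-409-5p: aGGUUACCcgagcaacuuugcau
mmu-miR-409-3p: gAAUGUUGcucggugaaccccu

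The 16 arrays had medians between 4.67 and 4.82 on the log2 scale of the deposited values, and the limited number of arrays sets the precision. In the comparisons of Dox+RA day 12, Dox+RA day 8, Dox day 12 and Dox day 8 with EBs of the same day, 22.4%, 19.6%, 19.2% and 15.7% of all genes were higher and 22.4%, 22.0%, 21.7% and 18.9% lower, and the marker counts stand beside these shares. Of 14 hair cell markers, 13 were higher in each of the 4 iHC groups than in EBs of the same day. This list holds the induced factors and the reporter gene, so it checks the labels only. All 9 mesenchyme markers (among them Postn, Col1a1 and Pdgfra) were lower in each of the 4 comparisons, and the mean of the list lay between 4.58 and 5.29 in iHC arrays, against 8.75 to 9.50 in EB arrays. EBs are mixtures of many cell types, so fewer cells of a type and less RNA per cell cannot be told apart. Of 6 endothelium markers 5 were lower at day 12 and 6 at day 8 under either treatment, and all 3 red cell markers on the table were lower in each comparison. Endoderm markers were lower for 5 of 6 at day 12 and 3 of 6 at day 8 under either treatment. Of 5 heart muscle markers 2 were lower at day 12 and 4 at day 8 under either treatment, with 1 higher in Dox iHCs at day 12. Of 5 pluripotency markers 3 were lower in each comparison, or 4 in Dox iHCs at day 12. Of 10 neuron markers 5 were higher in Dox+RA iHCs at day 12, 7 at day 8, 7 in Dox iHCs at day 12 and 8 at day 8, with 1 lower in each day 12 group. The part of these cell types in the results below was not tested.

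The microRNA genes of the region were lower in iHCs than in EBs at both days and under both treatments. Log2 differences were tested with limma over all genes, and a gene was called at a Benjamini-Hochberg adjusted p under 0.05. In Dox+RA iHCs at day 12, 36 of the 40 were called lower than in day 12 EBs and 0 higher. Of all genes in that comparison, 22.4% were called lower and 22.4% higher. In Dox+RA iHCs at day 8, 37 were lower and 0 higher, against 22.0% and 19.6% of all genes. In Dox iHCs at day 12, 36 were lower and 0 higher, against 21.7% and 19.2% of all genes. In Dox iHCs at day 8, 37 were lower and 0 higher, against 18.9% and 15.7% of all genes. The Dox+RA and Dox comparisons of a day use the same 2 EB arrays.

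The median log2 difference over the 40 genes was -1.51 for Dox+RA iHCs at day 12 and -1.51 at day 8, and -1.30 for Dox iHCs at day 12 and -1.28 at day 8. Over all genes the medians of the same comparisons were 0.07, 0.05, 0.02 and 0.02. Of the 40, 29 were called at least 2-fold lower in Dox+RA iHCs at day 12, against 9.81% of all genes, and 29 at day 8, against 9.04%. In Dox iHCs 27 were called at least 2-fold lower at day 12, against 8.75%, and 27 at day 8, against 6.58%. In 34 of the 40, all 12 iHC arrays lay below all 4 EB arrays, which was so for 16.1% of all genes.

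The other 432 microRNA genes on the table were counted in the same way. At day 12, 59 of them were lower and 74 higher in Dox+RA iHCs than in EBs, with a median log2 difference of 0.07. The counts were 46 lower and 60 higher for Dox+RA iHCs at day 8, 53 and 58 for Dox iHCs at day 12, and 35 and 52 for Dox iHCs at day 8, with medians of 0.08, 0.04 and 0.05. Among these 432 were 3 further microRNA genes that lie between Dlk1 and Dio3 (Mir3070b, Mir882 and Mir453), and all 3 were lower in each of the 4 comparisons.

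**Figure D1:**
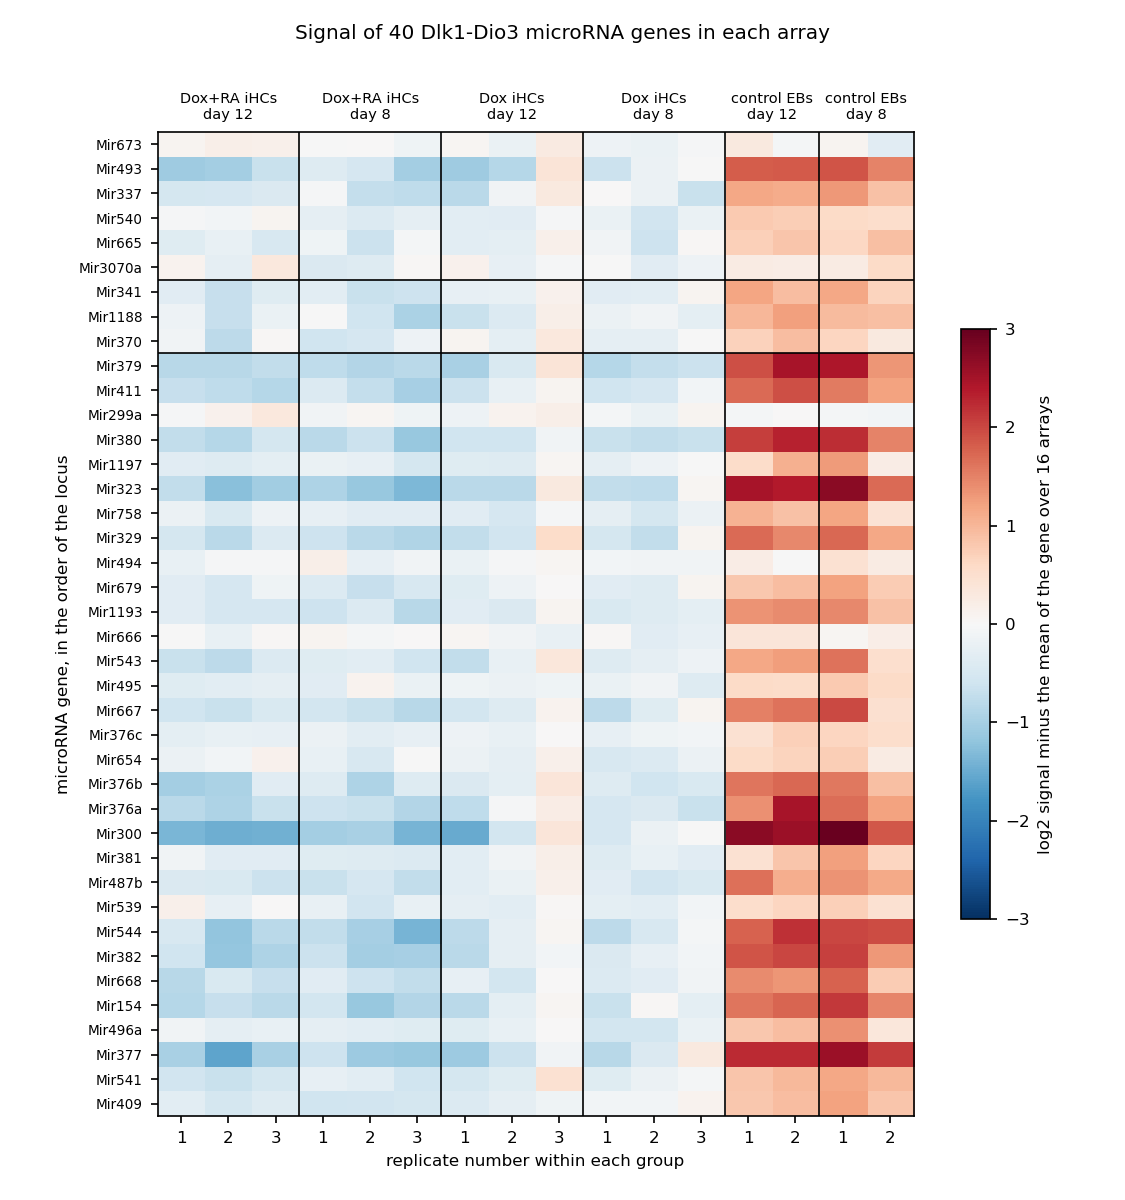
Each row is 1 of 40 microRNA genes in the order of the locus and each column 1 array, and colour is the log2 signal minus the mean of the gene over 16 arrays. Black lines separate the 6 groups and, across the rows, the genes from Meg3 to Rtl1 (6), those of Rian (3) and those of the miR-379/miR-410 cluster (31). The EB arrays are red in most rows, replicate 3 of Dox day 12 is the palest iHC array, and Mir673 and Mir299a show little contrast.

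Mir300 had the largest difference in 3 of the 4 comparisons. Its signals on the log2 scale were 2.95, 2.86 and 2.87 in Dox+RA iHCs at day 12, 3.29, 3.34 and 2.92 in Dox+RA iHCs at day 8, 2.80, 3.76 and 4.67 in Dox iHCs at day 12, and 3.81, 4.14 and 4.30 in Dox iHCs at day 8. They were 7.02 and 6.89 in EBs at day 12 and 7.27 and 6.17 in EBs at day 8. No iHC array reached the lowest EB array, and Dox arrays lay nearer to the EBs than Dox+RA arrays in all but replicate 1 of Dox day 12. The log2 difference from EBs was -4.06 ± 0.39 in Dox+RA iHCs at day 12 (± is the standard error from limma throughout, adjusted p = 5.7e-07), -3.54 ± 0.39 at day 8 (adjusted p = 2.8e-06), -3.21 ± 0.39 in Dox iHCs at day 12 (adjusted p = 7.7e-06) and -2.64 ± 0.39 at day 8 (adjusted p = 7.6e-05). The iHC signals of this entry are dim and no detection call was used, so no fold is given.

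Mir323 followed closely. Its signals were 3.36, 2.84 and 3.04 in Dox+RA iHCs at day 12, 3.16, 2.95 and 2.75 at day 8, 3.27, 3.27 and 4.39 in Dox iHCs at day 12, and 3.34, 3.32 and 4.14 at day 8, against 6.56 and 6.47 in EBs at day 12 and 6.79 and 5.79 in EBs at day 8. The groups of iHCs and EBs did not overlap, and the third replicate of each Dox group was the highest iHC array of its day. The log2 differences were -3.44 ± 0.35, -3.33 ± 0.35, -2.87 ± 0.35 and -2.69 ± 0.35 for Dox+RA day 12, Dox+RA day 8, Dox day 12 and Dox day 8 (limma adjusted p from 9.0e-07 to 2.0e-05).

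Mir377 had signals of 3.59, 2.99 and 3.61 in Dox+RA iHCs at day 12, 3.96, 3.49 and 3.44 at day 8, 3.49, 3.94 and 4.47 in Dox iHCs at day 12, and 3.74, 4.15 and 4.87 at day 8, against 6.82 and 6.82 in EBs at day 12 and 7.13 and 6.67 in EBs at day 8. Again no iHC array reached an EB array. The differences were -3.42 ± 0.32, -3.27 ± 0.32, -2.85 ± 0.32 and -2.65 ± 0.32 in the same order of groups.

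Mir379, the first gene of its cluster, had signals between 2.53 and 2.67 in all 6 Dox+RA arrays. The Dox iHCs had 2.43, 2.96 and 3.79 at day 12 and 2.56, 2.69 and 2.76 at day 8, and the EBs 5.35 and 5.89 at day 12 and 5.85 and 4.73 at day 8. Replicate 3 of Dox day 12 stood above the other iHC arrays and below every EB array. Mir379 was lower by -3.01 ± 0.32, -2.70 ± 0.32, -2.56 ± 0.32 and -2.62 ± 0.32 (log2) in Dox+RA day 12, Dox+RA day 8, Dox day 12 and Dox day 8.

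Mir380 lay between 2.94 and 3.97 in the 12 iHC arrays, against 5.56 to 6.38 in the 4 EB arrays, and differed by -2.90 ± 0.20, -2.72 ± 0.20, -2.63 ± 0.20 and -2.55 ± 0.20. A second, dimmer entry of Mir380 lay between 2.02 and 2.36 in iHCs, against 2.27 to 2.42 in EBs, and was called in none of the 4 comparisons. With that entry the difference in Dox+RA iHCs at day 12 was -0.14 (limma adjusted p = 0.28), so the choice of entry decides the call. The dimmer entries of Mir376a, Mir409 and Mir299a were likewise called in no comparison, whereas the brighter ones of Mir376a and Mir409 fell. The Mir376a entry used was the brighter one mainly through the EBs. Its EB means were 4.46 at day 12 and 3.99 at day 8, against 1.96 and 1.93 in the dimmer entry. In Dox+RA iHCs its means were 1.74 and 1.82, against 1.89 and 1.95. The choice of this entry thus used the EB signal, and its fall is not independent of that choice. The dimmer entry of Mir376a differed by 0.020 in Dox+RA iHCs at day 8 and 0.031 in Dox iHCs at day 12, and that of Mir409 by 0.0078 in Dox+RA iHCs at day 8, so the sign turned there.

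Mir544 was lower by -2.81 ± 0.27 in Dox+RA iHCs at day 12, -3.03 ± 0.27 at day 8, -2.31 ± 0.27 in Dox iHCs at day 12 and -2.42 ± 0.27 at day 8. Mir382 was lower by -2.83 ± 0.24, -2.56 ± 0.24, -2.33 ± 0.24 and -1.93 ± 0.24 in the same order. Both belong to the miR-379/miR-410 cluster. Mir493, which lies near Meg3 (hairpin at chr12:109580233-109580315), was the most changed gene outside that cluster, with differences of -2.75 ± 0.33, -2.32 ± 0.33, -2.35 ± 0.33 and -1.97 ± 0.33. Its signals ranged from 4.07 to 5.52 in iHCs, against 6.62 to 7.03 in EBs.

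**Figure D2:**
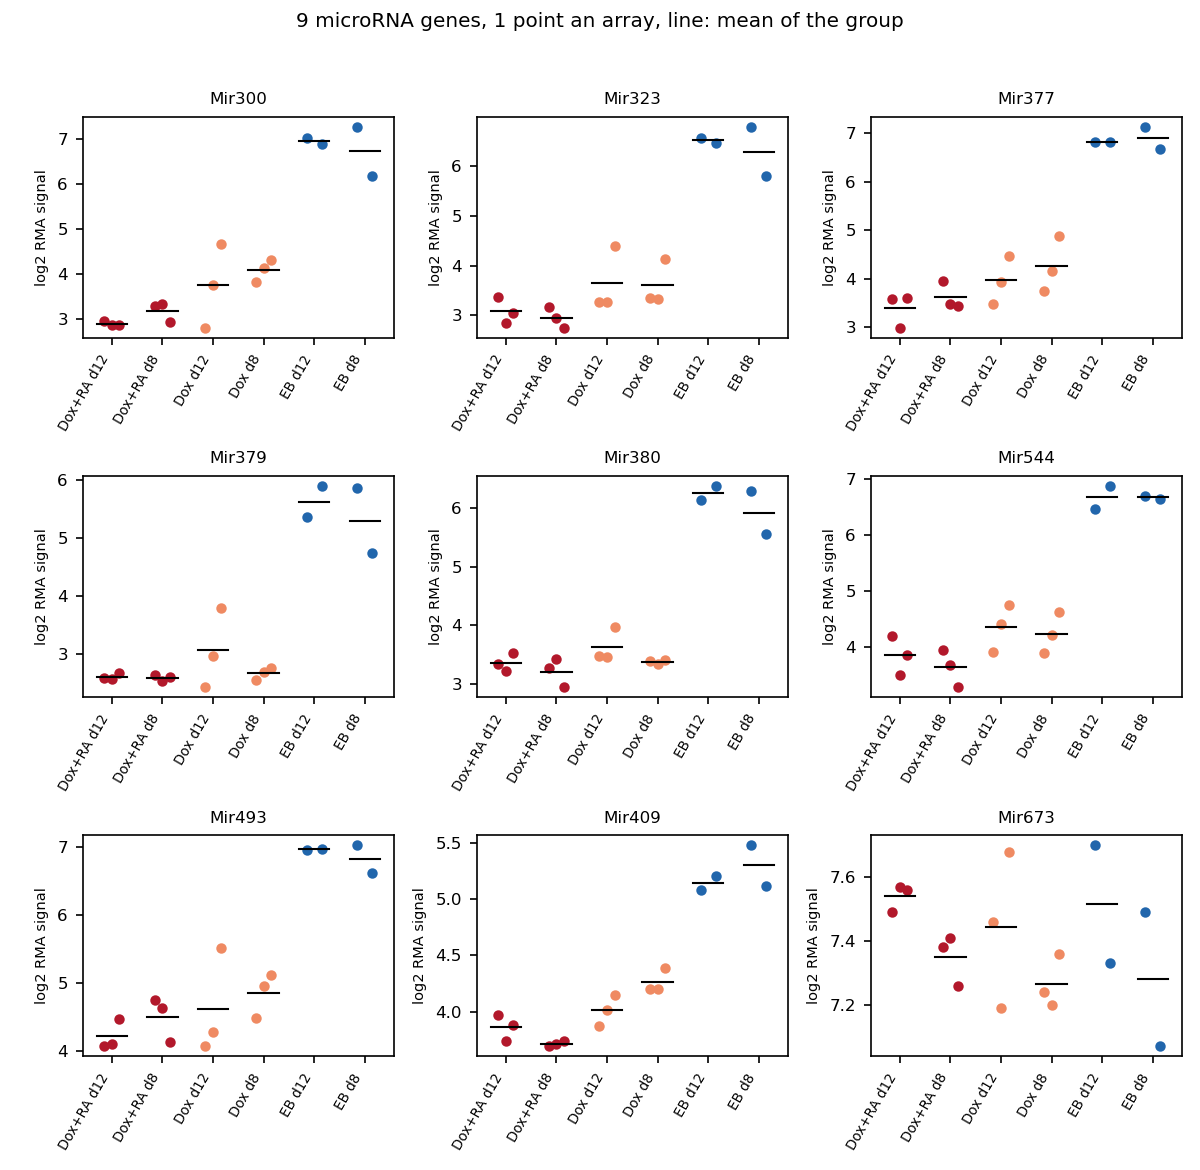
Each panel is 1 microRNA gene, the vertical axis is its log2 RMA signal on a scale of its own, each point is 1 array and each line the mean of a group. In the first 8 panels all iHC points lie below all EB points, and in the panel of Mir673 the 6 groups overlap.

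Among the 6 genes with the highest mean signal, 5 were called lower in all 4 comparisons. Mir329 had signals of 6.24 to 7.70 in iHCs and 8.29 to 8.86 in EBs. Its differences were -2.14 ± 0.32, -2.22 ± 0.32, -1.82 ± 0.32 and -1.84 ± 0.32 for Dox+RA day 12, Dox+RA day 8, Dox day 12 and Dox day 8. Mir667 had differences of -2.14 ± 0.33, -1.91 ± 0.33, -1.84 ± 0.33 and -1.57 ± 0.33, and Mir341, a gene of the Rian stretch, had -1.53 ± 0.18, -1.45 ± 0.18, -1.19 ± 0.18 and -1.09 ± 0.18. For Mir758 they were -1.23 ± 0.19, -1.12 ± 0.19, -1.26 ± 0.19 and -1.14 ± 0.19, and for Mir679 -1.20 ± 0.17, -1.52 ± 0.17, -1.04 ± 0.17 and -1.21 ± 0.17. The sixth, Mir673, was bright and flat. Its signals ranged from 7.19 to 7.68 in iHCs and from 7.07 to 7.70 in EBs, and its differences were 0.03 ± 0.15, 0.07 ± 0.15, -0.07 ± 0.15 and -0.02 ± 0.15, called in none of the 4 comparisons.

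The few genes that were not called, named here after their values were seen, were Mir673 and Mir299a in all 4 comparisons, Mir494 and Mir3070a at day 12 under both treatments, and Mir666 at day 8 under both. Mir299a ranged from 2.93 to 3.45 in iHCs and from 3.05 to 3.15 in EBs, and its differences lay between 0.01 and 0.15. Mir494 differed by -0.19 ± 0.13 in Dox+RA iHCs and -0.16 ± 0.13 in Dox iHCs at day 12 (not called), and by -0.40 ± 0.13 and -0.44 ± 0.13 at day 8 (limma adjusted p = 0.019 and 0.013). The day 8 call of Mir494 was lost under both treatments without replicate 1 of day 8 EBs (adjusted p = 0.18 and 0.14). With Dox+RA it was also lost without replicate 2 of Dox+RA day 8 (adjusted p = 0.081). The day 8 calls of Mir3070a were lost without replicate 2 of day 8 EBs (adjusted p = 0.11 with Dox+RA and 0.22 with Dox), and with Dox also without replicate 2 of Dox day 8 (adjusted p = 0.074). The day 12 call of Mir666 with Dox+RA was lost without replicate 2 of day 12 EBs (adjusted p = 0.054) and after a further quantile normalization (adjusted p = 0.070). Mir666 was called in Dox iHCs at day 8 without replicate 1 of Dox day 8 (-0.43, adjusted p = 0.013), with array weights (adjusted p = 0.040) and with dim genes left out (adjusted p = 0.042). The tests of the difference between days are given further on.

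By position, 4 of the 6 genes between Meg3 and Rtl1 were lower in Dox+RA iHCs at day 12, with a median log2 difference of -0.95, as were all 3 genes of the Rian stretch (median -1.46) and 29 of the 31 genes of the miR-379/miR-410 cluster (median -1.82). In Dox iHCs at day 8 the counts were 5 of 6, 3 of 3 and 29 of 31, with medians of -0.94, -1.09 and -1.54. Genes with the same seed are given side by side. In Dox+RA iHCs at day 12, Mir379 and Mir411 were lower by -3.01 ± 0.32 and -2.58 ± 0.21, Mir1193 by -1.82 ± 0.18, Mir370 by -1.11 ± 0.23, Mir1197 by -1.14 ± 0.24, Mir758 by -1.23 ± 0.19, Mir376b by -2.45 ± 0.26 and Mir376c by -0.83 ± 0.10. Of the remaining pair, Mir494 differed by -0.19 ± 0.13 and was not called, while the entry that Mir410 shares with Mirg, Mir369 and Mir412 was lower by -2.35 ± 0.21. Each value belongs to its own probes, and the sizes are not compared between genes. Without replicate 1 of day 8 EBs, Mir370 and Mir1197 were called in neither comparison of day 8 (adjusted p from 0.057 to 0.27). In Dox iHCs at day 12 both calls were lost without replicate 2 of day 12 EBs (adjusted p = 0.12 for Mir370 and 0.060 for Mir1197), and that of Mir370 without replicate 2 of Dox day 12 (adjusted p = 0.059). In Dox iHCs at day 8 that of Mir370 was lost without replicate 1 or 2 of Dox day 8 (adjusted p = 0.095 each). The base composition of the RefSeq hairpin was set beside the difference. Across the 38 genes with a hairpin sequence and an entry of their own, with GC contents from 29.1% to 62.0%, Pearson's r between GC content and log2 difference lay between 0.06 and 0.16 in the 4 comparisons. These genes share the same arrays and are not independent. Probe sequences were not available and the probes may read the host transcript, so the part of base composition in the difference was not tested.

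**Figure D3:**
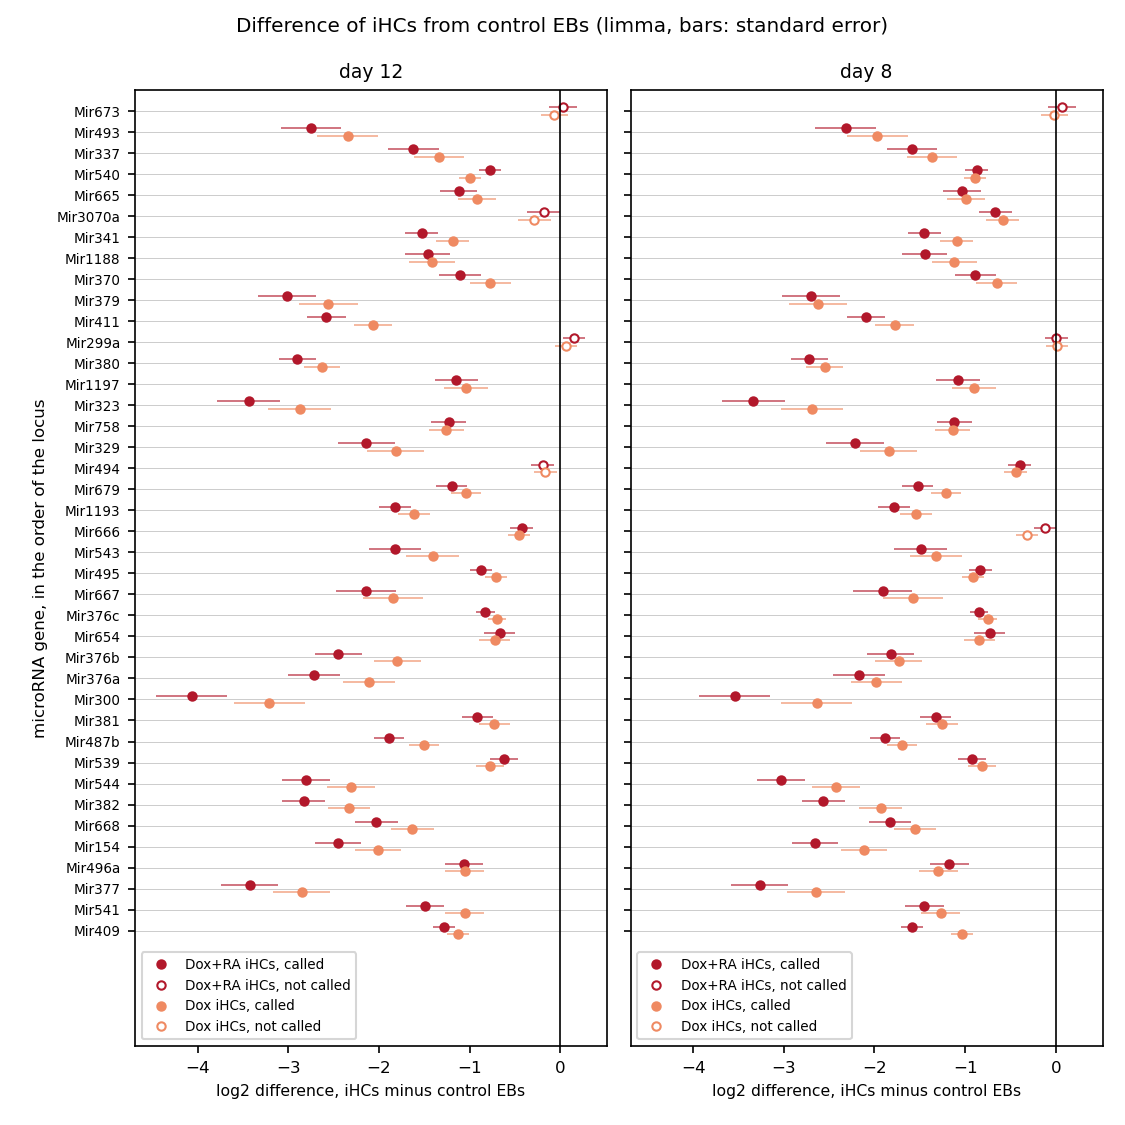
Each point is the log2 difference of 1 microRNA gene between iHCs and EBs of the same day, with its limma standard error as the bar, for Dox+RA iHCs (dark) and Dox iHCs (light). Filled points passed an adjusted p of 0.05, and the left and right panels are day 12 and day 8. Nearly all points lie left of 0, and Mir300 reaches -4.06 at day 12.

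Among the host and neighbour genes of the region, Dlk1 and Rian were called lower in each comparison with EBs. Meg3 differed between its entries, and Dio3, Dio3os, Wdr25 and Begain, given further on, had mixed values. Dlk1, a transmembrane protein related to the Notch ligands, had signals of 6.03, 5.67 and 6.22 in Dox+RA iHCs at day 12, 6.16, 6.03 and 5.98 at day 8, 6.49, 6.96 and 7.22 in Dox iHCs at day 12, and 6.69, 7.20 and 7.30 at day 8. The EBs had 9.84 and 9.76 at day 12 and 10.03 and 9.54 at day 8. All Dox+RA arrays lay below all Dox arrays and these below all EB arrays. Dlk1 was lower than in EBs by -3.83 ± 0.22, -3.72 ± 0.22, -2.91 ± 0.22 and -2.72 ± 0.22 in Dox+RA day 12, Dox+RA day 8, Dox day 12 and Dox day 8 (limma adjusted p from 3.6e-09 to 2.4e-07).

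Rian, a noncoding RNA that hosts small nucleolar RNAs and some of the microRNAs, had signals of 7.28, 6.72 and 7.18 in Dox+RA iHCs at day 12, 7.16, 6.80 and 6.91 at day 8, 7.34, 7.87 and 8.21 in Dox iHCs at day 12, and 7.40, 7.73 and 8.13 at day 8, against 9.65, 9.73, 9.56 and 9.59 in the 4 EB arrays. The iHC arrays were lower throughout, and the differences were -2.63 ± 0.24, -2.62 ± 0.24, -1.88 ± 0.24 and -1.82 ± 0.24 in the same order. All 6 small nucleolar RNA genes of the interval were also lower in each comparison, with median differences of -3.06, -2.71, -2.31 and -2.11.

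Meg3, the noncoding RNA at the start of the transcribed stretch, gave different values in its 3 entries. In the entry shared with Mir770 the signals were 7.98, 7.69 and 7.97 in Dox+RA iHCs at day 12, 7.74, 7.34 and 7.29 at day 8, 7.89, 8.20 and 8.68 in Dox iHCs at day 12 and 7.81, 8.00 and 8.30 at day 8, against 9.08 to 9.24 in the EB arrays. This entry fell by -1.28 ± 0.20, -1.66 ± 0.20, -0.91 ± 0.20 and -1.09 ± 0.20, and the entry shared with Mir1906-1 and Mir1906-2 by -1.72 ± 0.21, -1.91 ± 0.21, -1.08 ± 0.21 and -1.38 ± 0.21. The entry of Meg3 alone was dimmer (4.77 to 5.24 in iHCs, 5.24 to 5.47 in EBs) and differed by -0.21 ± 0.13, -0.34 ± 0.13, -0.32 ± 0.13 and -0.43 ± 0.13. It was called only in Dox iHCs at day 8 (limma adjusted p = 0.020), and that call was lost without replicate 1 of day 8 EBs (adjusted p = 0.18) or replicate 2 of Dox day 8 (adjusted p = 0.080). Without replicate 3 of Dox day 12 it was called in Dox iHCs at day 12 too (-0.43, adjusted p = 0.014). With a replicate block the entry was called in Dox iHCs at day 12 (-0.37, adjusted p = 0.015) and in Dox+RA iHCs at day 8 (-0.40, adjusted p = 0.0097). With array weights it was called in the same 2 comparisons (-0.41, adjusted p = 0.014, and -0.35, adjusted p = 0.045). In Dox+RA iHCs at day 8 the main fit gave an adjusted p of 0.051. There the entry was also called with arrays set to the same median (adjusted p = 0.047) and after a further quantile normalization (0.049). A fit of the compared groups alone called it as well (0.041).

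The promoter of Meg3 is shown as the start of the noncoding stretch in which most of the listed genes were lower. The window of 300 bases in RefSeq (GRCm38.p6) lies at chr12:109540746-109541045 on the plus strand and was searched for TGACGTCA, the full cyclic AMP response element, which reads the same on both strands. It holds the motif 1 time, at base 194 of the window, shown in capitals. The motif was found in 588 of 32851 promoter windows of the same length in the table (1.79%). The other Meg3 window in the table and the windows of Dlk1, Rian, Mirg and Dio3 did not hold these letters.
Meg3 promoter: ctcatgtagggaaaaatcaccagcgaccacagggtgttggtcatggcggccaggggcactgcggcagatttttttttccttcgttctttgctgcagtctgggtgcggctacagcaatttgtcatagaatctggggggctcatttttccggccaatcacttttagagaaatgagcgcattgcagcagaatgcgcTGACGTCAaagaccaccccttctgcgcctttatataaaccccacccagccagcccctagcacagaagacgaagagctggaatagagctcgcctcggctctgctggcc

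Rtl1, a retrotransposon-derived protein gene of the placenta, and Mirg, the noncoding host of the far part of the miR-379/miR-410 cluster, had no entry of their own. The 11 listed microRNAs without an entry of their own were read in 8 shared entries with these genes. All 8 were lower in Dox+RA iHCs at day 12 and 6 of them in each of the other 3 comparisons. Of all 33708 entries, 17.9% were lower in Dox+RA iHCs at day 12, 17.7% at day 8, 17.2% in Dox iHCs at day 12 and 14.7% at day 8. The entry of Mirg with Mir369, Mir410 and Mir412 had signals of 3.86 to 4.27 in the 6 Dox+RA arrays, 4.16 to 4.84 in the 6 Dox arrays and 6.06 to 6.64 in the EB arrays, with differences of -2.35 ± 0.21, -2.29 ± 0.21, -1.91 ± 0.21 and -1.86 ± 0.21. The entry of Mir485 with Mirg differed by -2.78 ± 0.22, -2.47 ± 0.22, -2.29 ± 0.22 and -2.16 ± 0.22, and that of Mir134 with Mirg, whose microRNA limits the size of dendritic spines, by -1.38 ± 0.19, -1.22 ± 0.19, -1.08 ± 0.19 and -1.04 ± 0.19. The entry that joins Mir127 and Mir433, which lie antisense to Rtl1, differed by -1.86 ± 0.21, -2.00 ± 0.21, -1.48 ± 0.21 and -1.70 ± 0.21. The 2 entries that were called in Dox+RA iHCs at day 12 alone were that of Rtl1 with Mir431 (-0.57 ± 0.21) and a second one of Rtl1 with Mir3071 (-0.36 ± 0.11).

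The genes towards the borders of the region gave mixed values. Dio3, the enzyme that inactivates thyroid hormone, was lower in Dox+RA iHCs (-0.68 ± 0.13) and in Dox iHCs (-0.70 ± 0.13) at day 8, while the day 12 differences of -0.20 ± 0.13 and -0.24 ± 0.13 were not called. The change over time in iHCs minus that in EBs was 0.48 ± 0.19 with Dox+RA and 0.47 ± 0.19 with Dox. Neither was called (limma adjusted p = 0.26 and 0.25), so the days were not shown to differ. The group means of Dio3 lay between 3.32 and 3.38 in iHCs, and were 3.56 in EBs at day 12 and 4.06 at day 8. Its antisense neighbour Dio3os was lower in all 4 comparisons, by -0.41 ± 0.14, -0.72 ± 0.14, -0.38 ± 0.14 and -0.70 ± 0.14. The day 12 calls of Dio3os were lost without either replicate of the day 12 EBs, without replicate 2 or 3 of Dox+RA day 12, and without replicate 1 or 2 of Dox day 12 (limma adjusted p from 0.056 to 0.22). Both were also lost with arrays set to the same median (adjusted p = 0.051 with Dox+RA and 0.089 with Dox). With Dox the call was lost with all entries tested (0.057) and with the lowest entries of all genes (0.0505). A further quantile normalization (0.058) and a fit of the compared groups alone (0.077) ended it too. Wdr25, on the Dlk1 side outside the imprinted stretch, was higher in Dox+RA iHCs at day 12 (0.85 ± 0.08) and day 8 (0.62 ± 0.08). It was also higher in Dox iHCs at day 12 (0.44 ± 0.08). In Dox iHCs at day 8 it differed by 0.22 ± 0.08 (adjusted p = 0.052, and 0.041 without replicate 1 of Dox day 8). It was called there too with dim genes left out (adjusted p = 0.036) and after a further quantile normalization (adjusted p = 0.024). Begain was called in no comparison with EBs, with differences from -0.45 to 0.47; with a replicate block it was lower in Dox iHCs at day 12 (-0.55, adjusted p = 0.019), as in a fit of the compared groups alone (-0.45, adjusted p = 0.034). In Dox+RA iHCs at day 12 it was called higher with arrays set to the same median (0.52, adjusted p = 0.041), after a further quantile normalization (0.58, adjusted p = 0.023) and in a fit of the compared groups alone (0.47, adjusted p = 0.023).

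**Figure D4:**
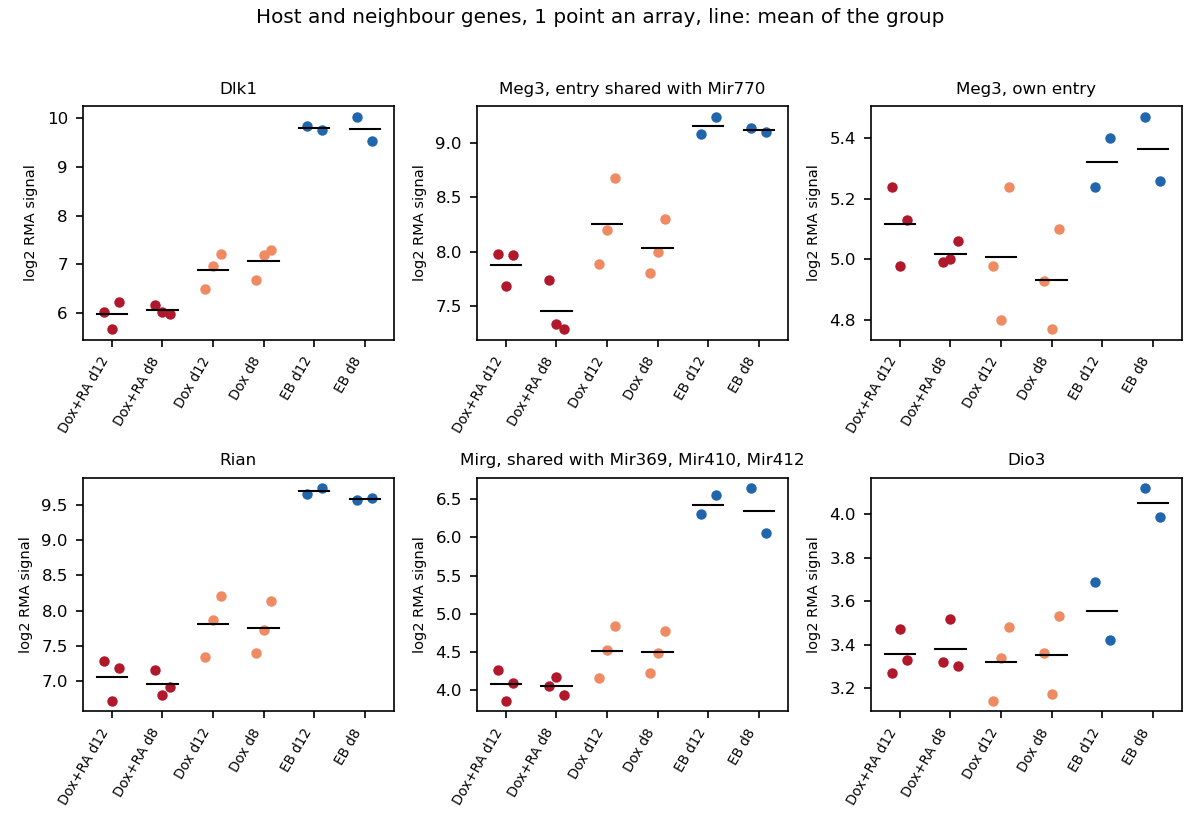
Each panel is 1 array entry of a host or neighbour gene, the vertical axis is its log2 RMA signal on a scale of its own, each point is 1 array and each line the mean of a group. Dlk1, Rian, Mirg and the Meg3 entry shared with Mir770 are lower in every iHC array than in every EB array, whereas the own entry of Meg3 and Dio3 span a narrow range.

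The effect of RA on the sorted cells was small beside the difference from EBs. At day 12, 0 of the 40 microRNA genes were called between Dox+RA iHCs and Dox iHCs (0.924% of all genes were called in either direction), and 7 had an unadjusted limma p under 0.05, against 12.1% of all genes. By sign alone 32 of the 40 were lower with RA, against 42.5% of all genes, with a median log2 difference of -0.28. The median rests largely on 1 array. Without replicate 3 of Dox day 12 it was -0.07, and 27 of the 40 were lower by sign.

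That replicate was the highest of its group in 37 of the 40 genes. The mean over the 40 genes was 4.21, 4.36 and 4.81 in the 3 Dox day 12 arrays, while the other 9 iHC arrays lay between 4.08 and 4.52 and the 4 EB arrays between 5.52 and 6.01. The mean of the 9 mesenchyme markers was 4.68, 4.72 and 5.29 in the same 3 arrays and that of 6 endoderm markers 5.18, 5.30 and 6.12. The means of the red cell list (4.06, 4.03 and 4.32) and of the heart muscle list (5.27, 5.71 and 5.91) were also highest in replicate 3. Those of the hair cell list (8.90, 8.77 and 8.55), the neuron list (6.55, 6.53 and 6.33) and the endothelium list (5.17, 5.65 and 4.81) were lowest there, and that of the pluripotency list (4.62, 4.98 and 4.90) was neither. Replicate 3 was thus highest in 4 of the 8 lists and lowest in 3, and their part in its microRNA signal was not tested.

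At day 8 the median difference with RA was -0.18 and 32 of the 40 genes were lower by sign, against 45.9% of all genes. Replicate 3 of Dox day 8 was the highest of its group in 29 of the 40 genes. Its mean over the genes was 4.52, against 4.30 and 4.32 in replicates 1 and 2. Without it 31 of the 40 were lower by sign. Mir409 was the only gene called, while 4.93% of all genes were called in either direction, and 7 had an unadjusted p under 0.05, against 18.9% of all genes. The signals of Mir409 were 3.69, 3.71 and 3.74 in Dox+RA iHCs and 4.20, 4.20 and 4.39 in Dox iHCs, with no overlap. The log2 difference was -0.55 ± 0.11 (limma adjusted p = 0.0098). Without replicate 3 of Dox day 8 it was -0.49 (adjusted p = 0.055). With the dimmer entry of Mir409 it was 0.13 (adjusted p = 0.61), so this call depends on which entry is read. At day 12 the signals of Mir409 were 3.97, 3.74 and 3.88 in Dox+RA iHCs and 3.87, 4.01 and 4.15 in Dox iHCs, and the difference of -0.15 ± 0.11 was not called.

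Of the 40 genes, 29 were lower with RA by sign at both days and 5 were higher at both. The share of all genes with 1 sign at both days was not counted. Equal replicate numbers were taken to pair the iHC arrays, so the days are not separate checks of the sign. Mir300 had the largest value at each day, -0.85 ± 0.35 at day 12 (limma adjusted p = 0.33) and -0.90 ± 0.35 at day 8 (adjusted p = 0.16, and 0.022 in a fit of these groups alone). Its day 12 value was called only without replicate 1 of Dox day 12 (-1.32, adjusted p = 0.032), and without replicate 3 it was -0.39. Mir376b differed by -0.65 ± 0.23 at day 12 (adjusted p = 0.25) and by -0.09 ± 0.23 at day 8. Mir382 differed by -0.50 ± 0.21 at day 12 and -0.63 ± 0.21 at day 8 (adjusted p = 0.35 and 0.10), and it was called at day 8 in a fit of these groups alone (adjusted p = 0.048).

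Among the host genes Dlk1 was lower with RA, by -0.92 ± 0.20 at day 12 (limma adjusted p = 0.045) and -1.005 ± 0.20 at day 8 (adjusted p = 0.011). The day 12 call was lost without replicate 1 or 2 of Dox+RA day 12 and without replicate 2 or 3 of Dox day 12 (adjusted p from 0.12 to 0.21), and the day 8 call without replicate 2 or 3 of Dox day 8 (adjusted p = 0.062 and 0.059). With all entries tested (adjusted p = 0.060), after a further quantile normalization (0.061) and in a fit of the compared groups alone (0.19), the day 12 call of Dlk1 was also lost. Rian was lower with RA at day 8 (-0.80 ± 0.21, adjusted p = 0.045), and leaving out any Dox+RA day 8 array or replicate 2 or 3 of Dox day 8 ended that call (adjusted p from 0.063 to 0.20). The same 3 alternatives of processing ended it too (adjusted p = 0.057, 0.055 and 0.054). The day 12 difference of Rian was -0.75 ± 0.21 (adjusted p = 0.13, and 0.049 with a replicate block). Wdr25 was higher with RA by 0.42 ± 0.07 at day 12 and 0.40 ± 0.07 at day 8 (adjusted p = 0.014 and 0.0075), and Begain by 0.92 ± 0.18 at day 12 (adjusted p = 0.029). The call of Begain was lost without any 1 of the 6 arrays compared (adjusted p from 0.056 to 0.093), and the day 12 call of Wdr25 without replicate 1 or 2 of Dox+RA day 12 or replicate 2 of Dox day 12 (adjusted p from 0.066 to 0.073). In a fit of the compared groups alone the call of Begain was lost (adjusted p = 0.052). Those of Wdr25 were lost there at both days (adjusted p = 0.14 at day 12 and 0.052 at day 8).

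**Figure D5:**
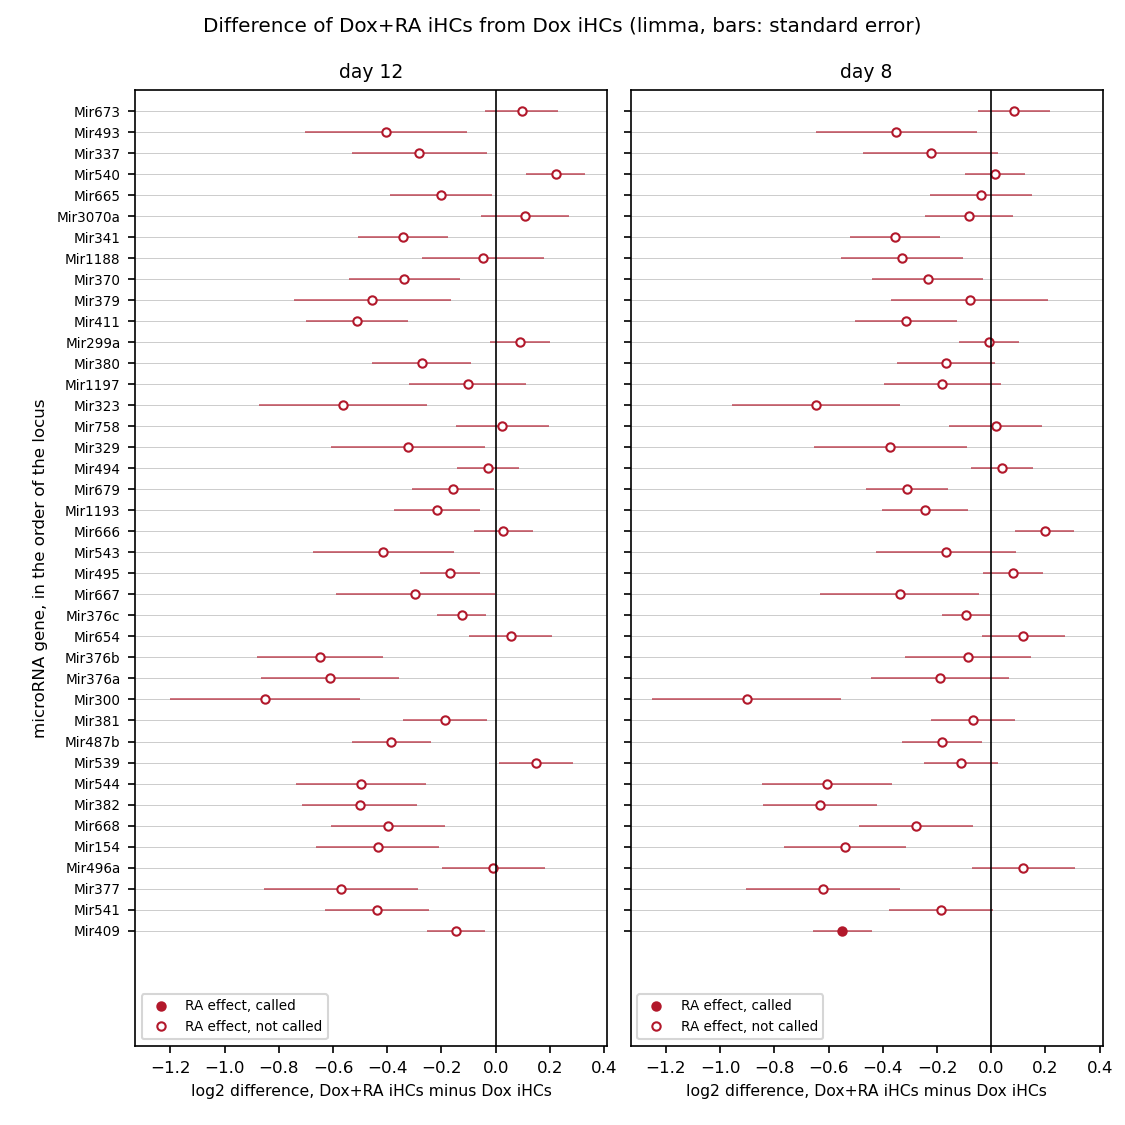
Each point is the log2 difference of 1 microRNA gene between Dox+RA iHCs and Dox iHCs, with its limma standard error as the bar, at day 12 (left) and day 8 (right). The filled point, Mir409 at day 8, is the only one that passed an adjusted p of 0.05, and most points lie between -0.9 and 0.2.

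No microRNA gene of the region was called between day 12 and day 8 in any group. In Dox+RA iHCs 0 of the 40 genes were called between the days (4.38% of all genes were called) and 2 had an unadjusted limma p under 0.05 (17.7% of all genes). In Dox iHCs 0 were called (8.05% of all genes) and 2 had such a p (21.5%), and in EBs 0 were called (3.75% of all genes) and 0 had such a p (14.1%). The 2 EB arrays of day 8 stood apart, replicate 1 being the higher in 37 of the 40 genes (mean over the genes 6.01, against 5.52 in replicate 2). In EBs the median difference between day 12 and day 8 was 0.13, with 12 of the 40 genes lower by sign. It was 0.36 with 5 lower without replicate 1 of day 8, and -0.12 with 29 lower without replicate 2. The largest values were 0.31 ± 0.16 for Mir3070a and 0.30 ± 0.14 for Mir539 in Dox+RA iHCs, 0.39 ± 0.29 for Mir379 and 0.36 ± 0.23 for Mir376b in Dox iHCs, and 0.47 ± 0.31 for Mir376a and 0.42 ± 0.28 for Mir376b in EBs. With a replicate block, Mir540 was called higher at day 12 in Dox+RA iHCs (0.30 ± 0.09, limma adjusted p = 0.043).

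The difference between changes over time was tested as well. The change in Dox+RA iHCs minus that in EBs was called for 0 of the 40 genes (2.62% of all genes) and had an unadjusted limma p under 0.05 for 0 (13.6% of all genes), and the change in Dox iHCs minus that in EBs was called for 0 (2.84% of all genes) and had such a p for 1 (14.2%). The effect of RA at day 12 minus that at day 8 was called for 0 of the 40 (0.00902% of all genes) and had such a p for 1 (5.75%). The largest values were -0.63 ± 0.37 for Mir376b, -0.57 ± 0.55 for Mir300 and -0.56 ± 0.33 for Mir376b in these 3 tests.

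Genes that make or use microRNAs were counted against the shares over all genes given above. Of 20 such genes 18 were on the table, of which 4 were higher and 3 lower than in EBs in Dox+RA iHCs at day 12, 6 and 6 in Dox+RA iHCs at day 8, 4 and 4 in Dox iHCs at day 12, and 5 and 5 in Dox iHCs at day 8. All genes were called higher and lower at 22.4% and 22.4%, 19.6% and 22.0%, 19.2% and 21.7%, and 15.7% and 18.9% in the same comparisons, and the counts say nothing about the list as a group. Ago1, which carries mature microRNAs to their targets, was higher by 1.07 ± 0.12, 1.04 ± 0.12, 0.80 ± 0.12 and 0.85 ± 0.12, and Tnrc6c, a partner of the Argonaute proteins in silencing, by 0.84 ± 0.09, 1.09 ± 0.09, 0.73 ± 0.09 and 0.64 ± 0.09. Lin28b, an RNA-binding protein that blocks the maturation of let-7, was lower by -1.39 ± 0.16 in Dox+RA iHCs at day 8, -0.78 ± 0.16 in Dox iHCs at day 12 and -1.55 ± 0.16 in Dox iHCs at day 8, and differed by -0.30 ± 0.16 in Dox+RA iHCs at day 12 (not called). Dicer1, named for its role in cutting the hairpin, was lower at day 8 (-0.45 ± 0.11 with Dox+RA and -0.43 ± 0.11 with Dox), and its day 12 differences of -0.08 ± 0.11 and -0.24 ± 0.11 were not called. Adar, an RNA editing enzyme that is known to edit microRNAs of the miR-376 family, was higher in Dox+RA iHCs than in Dox iHCs at day 8 (0.82 ± 0.13, limma adjusted p = 0.0030).

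Of 13 genes known to hold or read the imprint or to drive the cluster, 3 were higher and 6 lower in Dox+RA iHCs at day 12, 4 and 8 at day 8, 2 and 6 in Dox iHCs at day 12, and 4 and 7 at day 8. The shares of all genes are those just given, and the counts of higher genes are close to them at day 12. Uhrf1, which guides DNA methylation to newly made strands, was lower by -2.35 ± 0.16, -2.44 ± 0.16, -2.13 ± 0.16 and -1.74 ± 0.16, and the methyltransferase gene Dnmt3b by -1.95 ± 0.35, -2.52 ± 0.35, -1.90 ± 0.35 and -1.83 ± 0.35. Another methyltransferase gene, Dnmt3a, was higher by 0.52 ± 0.13, 0.81 ± 0.13 and 0.60 ± 0.13 in Dox+RA day 12, Dox+RA day 8 and Dox day 8. In Dox day 12 it differed by 0.18 ± 0.13 (not called). Dnmt1 and Dnmt3l were lower in each comparison, and Aff3 was higher at day 8 under both treatments. Mef2a and Mef2d, members of the factor family that drives the cluster in neurons, were higher in every comparison, Mef2d by 1.27 ± 0.11, 1.20 ± 0.11, 1.18 ± 0.11 and 1.20 ± 0.11. Mef2c was lower in Dox+RA iHCs at day 12 (-1.69 ± 0.35) and day 8 (-1.24 ± 0.35) and not called in Dox iHCs (-0.22 ± 0.35 and 0.27 ± 0.35), and was lower in Dox+RA iHCs than in Dox iHCs at both days (-1.47 ± 0.31, adjusted p = 0.039, and -1.52 ± 0.31, adjusted p = 0.013). With the dimmer entry of Mef2c none of these 4 calls held, and the sign turned in Dox+RA iHCs minus EBs at day 8 (0.044, adjusted p = 0.73). The day 12 RA call of Mef2c was also lost without any of the 6 arrays compared except replicate 3 of Dox+RA day 12 (adjusted p from 0.058 to 0.18), the day 8 RA call without replicate 2 of Dox day 8 (adjusted p = 0.060), and the day 8 call against EBs without replicate 2 of day 8 EBs (adjusted p = 0.091).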

How the data were processed

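The deposited values are log2 signals that the authors made with RMA. The submitters' processing notes name Affymetrix Expression Console and no version of it. The array annotation build is not given in the sources used here. RMA corrects background and sets all arrays to 1 distribution, which compresses differences at low signal, and no detection calls were used. Of 33708 entries, 23521 name 1 gene symbol, 1814 several and 8373 none in the platform's gene table. The entry with the highest mean over 16 arrays stood for a gene with several entries.

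All 22180 genes were fitted with limma 3.58.1 in R 4.3.3, with 1 mean for each of 6 groups, and a gene was called where its p, adjusted over the whole table by Benjamini-Hochberg, was under 0.05. The labels call the replicates biological and do not say whether equal numbers share a batch. Among iHC groups, deviations of arrays with the same number correlated at 0.15 to 0.51 in all 18 pairs. In the 18 pairs with EBs the range was 0.026 to 0.18. The pairs between day 8 and day 12 EBs gave the same value, 0.18, since the deviations of 2 arrays mirror each other. The numbers were therefore taken to pair the iHC arrays, from the data alone. The main calls, those of RA and of the days included, came from the fit without this pairing. A fit with the number as a block was an alternative. That block also joined the EB arrays to iHC arrays of the same number, a pairing that was not taken to hold. Block values of comparisons with EBs, among them those of Meg3 and Begain, rest on this pairing.

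The genes named were the 6 largest called falls of each comparison, the 6 brightest genes, the 2 largest values where none was called, and the host genes. The microRNA list, the other lists and the tests were chosen with earlier results of these data known. In data simulated for the comparison of Dox iHCs with EBs at day 8, changes of 0.5, 1 and 2 on the log2 scale were called in 28.2%, 78.3% and 98.3% of the altered genes, and for Dox+RA iHCs minus Dox iHCs at day 8 in 50.7%, 87.0% and 100%. Only 71, 69 and 60 of the 22180 genes carried these changes, and 14 and 5 unaltered genes were called. In the data far more genes were called (18.9% lower and 15.7% higher for Dox iHCs minus EBs at day 8, and 4.93% for RA at day 8). The adjusted p rests on that number, so the simulated shares need not hold for the reported comparisons. The alternatives were another variance model, rescaling of the arrays, a filter on dim genes, other entries, array weights, the block, fits of the compared groups alone, a 2-fold minimum and leaving out each replicate.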

Additional observations from a re-analysis of the deposited data

How the results depend on the processing

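In the comparisons with EBs, with all 40 genes tested, the number called lower stayed between 33 and 36 for Dox+RA iHCs at day 12, 33 and 37 at day 8, 33 and 36 for Dox iHCs at day 12, and 33 and 38 at day 8 under every alternative except the 2-fold minimum, where it was 29, 29, 27 and 27; leaving out 1 replicate gave 35 to 36, 33 to 37, 33 to 36 and 33 to 37. With dim genes left out only 12 of the 40 were tested, and 11, 10, 11 and 11 were called. That filter used the mean over all 16 arrays, so a gene could pass through its EB signal. Mir337 did so, with iHC group means of 4.83 to 5.13 and EB means of 6.42 and 6.47, against a cut of 5.25. These counts are therefore not a separate check of the difference from EBs.

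For RA at day 8 the count of 1 became 0 with dim genes left out, with the lowest entry, with the mean of the entries and with the 2-fold minimum, 3 with array weights and 3 in a fit of the compared groups alone, and 0 to 1 with a replicate left out. For RA at day 12 it was 0 to 1 with a replicate left out. For Dox+RA iHCs between the days it was 1 with the replicate block. The block changed no other call of the 40 genes, and for host genes only those given in the report and Begain between the days in Dox+RA iHCs (0.68, adjusted p = 0.014).

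Among the called values of the 40 genes and of the other named genes, signs turned with the lowest entry for Mir409 (0.13, adjusted p = 0.61, RA at day 8, and 0.0078, adjusted p = 0.97, Dox+RA iHCs minus EBs at day 8), for Mir376a (0.020, adjusted p = 0.91, Dox+RA iHCs minus EBs at day 8, and 0.031, adjusted p = 0.86, Dox iHCs minus EBs at day 12) and for Mef2c (0.044, adjusted p = 0.73, Dox+RA iHCs minus EBs at day 8); that alternative reads another probe set. Of 2043 values under alternatives, 1919 kept direction and side of the threshold. Groups of 2 or 3 arrays, probes that may read host RNA, and RMA at low signal limit what small differences can show.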
